A study of Mus musculus with 60 samples.

Results

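The genes described here encode the subunits of the proteasome, its activators and its assembly factors. They were chosen by symbol alone, as every gene whose name is Psm followed by a letter from a to g and a digit, and 49 of the 14620 genes of the liver time course matched. All 49 passed the filter on low values, and 50 distinct symbols matched over all tables, the additional one being the pseudogene Psma5-ps. By role, 8 encode alpha subunits of the 20S core, 7 constitutive beta subunits, 3 immunoproteasome beta subunits, 6 ATPases and 11 other subunits of the 19S regulator, 6 activators or an inhibitor, and 7 assembly factors. Psmc3ip matched by name only: it encodes a recombination factor known from meiosis and is no proteasome subunit, and it is kept in the counts.

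Liver RNA came from male C57BL/6 mice aged 8 weeks that had partial hepatectomy (PHx), in which a portion of the liver is resected, or were sham-operated. In the time course, mice operated on in the morning (8 to 9 o'clock) were sampled at 4, 8, 12, 16, 20, 24, 28 and 32 h, with 3 mice per group and 48 libraries. A further 4 groups of 3 mice were operated on at night (8 to 9 o'clock in the evening) and sampled at 4 or 24 h after PHx or sham, which gives 60 libraries in all. The labels name no transgene or further treatment, and the liver was taken as whole tissue, so fewer cells of one type and less RNA per cell cannot be told apart.

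The 20S core is a barrel of outer alpha rings and inner beta rings, and Psmb5, Psmb6 and Psmb7 carry its proteolytic sites. The 19S regulator caps the barrel: its ATPases (Psmc genes) unfold substrates and thread them in, and its other subunits (Psmd genes) recognise ubiquitin and remove it. Under interferon, Psmb8, Psmb9 and Psmb10 replace the constitutive catalytic subunits to form the immunoproteasome, and Psme1 and Psme2 form the activator PA28, both known for making peptides for MHC class I. In mammals, the transcription factor Nrf1 (gene Nfe2l1) is known to raise proteasome genes together through antioxidant response elements when proteasome capacity is short.

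Some libraries and tables call for care before the results. Hepatocyte markers were abundant in every group, with a summed value of 31919 to 81061 per library. In the time course, sham replicate 1 at 4 h listed 3422 genes at 0, against 768 to 1414 in the other libraries. The labels' library ID series differs between PHx and sham at 4 h and changes with time. The 4 h contrast is therefore also given against sham at 24 h, which shares the series of PHx at 4 h. That reference differs from PHx at 4 h in time after operation and in clock time. Series and time therefore cannot be told apart where the 2 references give different results. In the 4 h sham table with both operation times, morning column 3 and night replicate 3 went against their labels by clock genes: Arntl was 19.6, 17.3 and 9.75 TPM in the morning columns and 2.04, 2.94 and 13.5 TPM in the night replicates. The median gene also shifted between PHx and sham, by -0.32 (4 h), -0.15 (8 h), -0.01 (12 h), 0.05 (16 h), 0.13 (20 h), 0.10 (24 h), 0.13 (28 h) and 0.14 (32 h) on the log2 scale. TMM scaling, which sets the bulk of genes equal between libraries, moved these medians to between -0.02 and 0.03, so differences are given as deposited and after TMM scaling wherever a call depends on it.

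Promoters of 4 members are shown to cover both directions of the response described below. Psmb5 (core) and Psmd14 (19S deubiquitinase) were higher after PHx, and Psme1 (PA28) and Psmb8 (immunoproteasome) were lower. Other members differed more in each direction. Each is the RefSeq window from 250 bases before to 50 bases after the annotated start, in build GRCm38.p6, read 5′ to 3′ on the gene's strand. Capitals mark matches to 4 motifs searched on both strands: TGACNNNGC (antioxidant response element), CCAAT, the interferon-stimulated element (GAAA, any 2 bases, GAAA) and TTCNNNGAA (STAT site).
Psmb5 (chr14:54617946-54618245, minus strand): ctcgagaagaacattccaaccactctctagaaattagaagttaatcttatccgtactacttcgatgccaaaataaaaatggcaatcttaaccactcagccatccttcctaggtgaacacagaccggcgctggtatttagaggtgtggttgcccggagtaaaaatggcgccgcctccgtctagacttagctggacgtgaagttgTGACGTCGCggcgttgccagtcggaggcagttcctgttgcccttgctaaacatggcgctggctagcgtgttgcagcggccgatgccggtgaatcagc
Psmd14 (chr2:61711444-61711743, plus strand): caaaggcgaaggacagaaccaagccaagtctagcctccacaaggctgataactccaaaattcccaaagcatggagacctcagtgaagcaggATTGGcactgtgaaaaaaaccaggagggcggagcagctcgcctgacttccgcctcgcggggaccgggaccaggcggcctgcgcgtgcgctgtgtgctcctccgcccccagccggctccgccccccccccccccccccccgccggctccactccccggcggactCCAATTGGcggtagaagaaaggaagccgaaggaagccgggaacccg
Psme1 (chr14:55578244-55578543, plus strand): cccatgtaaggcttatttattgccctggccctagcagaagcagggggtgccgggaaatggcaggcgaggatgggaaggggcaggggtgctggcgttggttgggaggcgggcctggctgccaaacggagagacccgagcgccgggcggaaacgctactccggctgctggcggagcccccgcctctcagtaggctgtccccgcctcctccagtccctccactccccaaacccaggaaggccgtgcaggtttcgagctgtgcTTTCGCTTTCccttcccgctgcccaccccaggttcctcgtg
Psmb8 (chr17:34197945-34198244, plus strand): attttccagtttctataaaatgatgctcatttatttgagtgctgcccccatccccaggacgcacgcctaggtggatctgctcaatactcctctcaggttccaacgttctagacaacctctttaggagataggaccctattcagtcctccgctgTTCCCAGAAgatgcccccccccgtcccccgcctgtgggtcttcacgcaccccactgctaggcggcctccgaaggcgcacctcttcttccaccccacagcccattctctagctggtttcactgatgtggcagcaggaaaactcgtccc
Psmb5 held a single match, to TGACNNNGC, starting at position -47 with the start site as 0. Psmd14 held 3 CCAAT matches, the last 2 of which overlap. Psme1 held 1 match to the interferon-stimulated element on the opposite strand, and Psmb8 held 1 to TTCNNNGAA. RefSeq windows were matched for 41 members, 40 of them proteasome genes with 43 windows. TGACNNNGC occurred in 14.0% of these windows and in 12.4% of all 32851 windows of the same length. For CCAAT the shares were 30.2% and 37.4%, for the interferon-stimulated element 11.6% and 3.44%, and for TTCNNNGAA 6.98% and 8.30%. The interferon-stimulated element occurred in 5 of the 40 genes (Psmb3, Psmd4, Psmd9, Psme1 and Psmg4) and in 0 of 3 immunoproteasome genes. Averaged over the 8 times, Psmb3, Psmd4 and Psmd9 were higher after PHx, Psme1 was lower and Psmg4 was not called. The shares describe letters in a window and no binding.

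Levels between genes were compared as TPM, transcript abundance scaled for gene length and library total, which the 4 h sham table gives per length, over its 6 libraries. Psma4, an alpha subunit, had the highest level, with a median of 724 TPM and a range of 702 to 860. Psmd4, a 19S ubiquitin receptor, followed at 310 TPM and Psmc1, a 19S ATPase, at 280 TPM, and the ranges of these 2 genes overlapped. The constitutive catalytic genes Psmb6, Psmb7 and Psmb5 had medians of 195, 84.9 and 52.5 TPM. Their immunoproteasome counterparts were lower, at 23.5 TPM for Psmb8, 15.4 TPM for Psmb10 and 4.73 TPM for Psmb9. Assembly factors lay between 5.99 and 23.2 TPM. Psme2b and Psma5-ps are near-identical copies of Psme2 and Psma5, and counting may have split reads among them, which makes these values uncertain.

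**Figure D1:**
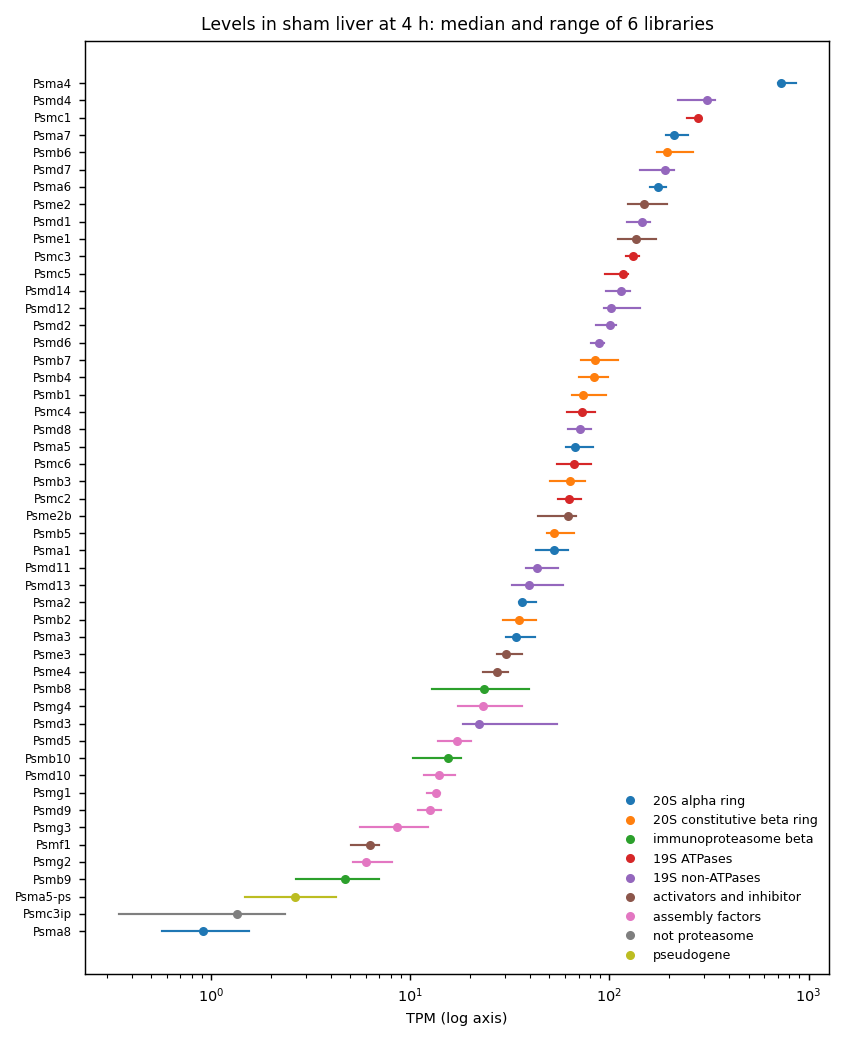
TPM of each matching gene in sham liver at 4 h on a log axis, with points at the median and lines from the lowest to the highest of 6 libraries, coloured by role. Psma4 leads at 724 TPM, most core and 19S genes lie above the assembly factors, and immunoproteasome genes lie at 4.73 to 23.5 TPM.

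Averaged over the 8 times, most genes of the core and the 19S regulator were higher after PHx, and the immunoproteasome genes, Psme1 and Psme2b were lower. Of the 49 members, 33 were higher and 5 lower (limma, Benjamini-Hochberg adjusted p under 0.05 over 12957 genes), where 27.4% of all genes were higher and 25.5% lower (52.9% in either direction). The median member difference was 0.19 on the log2 scale, against 0.01 for all genes, and after TMM scaling 34 members were higher and 5 lower (all genes 27.6% and 26%, or 53.5% together). Of the 19S regulator, 16 of 17 genes were higher, the exception being the ATPase Psmc6 (0.09 ± 0.05 SE). Of the 15 genes of the constitutive core, 13 were higher as deposited (7 of 8 alpha and 6 of 7 beta genes), and after TMM scaling all 7 beta genes were. All 3 immunoproteasome genes were lower. The remaining 11 members, Psma8, Psmb7, Psmc6, Psme2, Psme4, Psmf1 and 5 of 7 assembly factors, were not called as deposited. The leading gene of each role was Psmd8 among the 19S non-ATPases (0.62 ± 0.07), Psmc4 among the ATPases (0.57 ± 0.05), Psmb5 among constitutive beta subunits (0.49 ± 0.05), Psma2 among alpha subunits (0.27 ± 0.04), Psme3 among activators (0.33 ± 0.08), Psmd9 among assembly factors (0.22 ± 0.07) and Psmb9 in the immunoproteasome (-0.72 ± 0.09). Without sham replicate 1 at 4 h the counts were again 33 and 5, and with library series as a term they were 31 and 6.

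Time by time, few members were higher at 8 h and the most from 12 h on, in the values as deposited. At 4 h 8 members were higher and 7 lower (all genes 9.32% and 37.6%), and after TMM scaling 23 and 3 (21% and 19.4%). At 8 h 1 was higher and 6 lower (6.04% and 18.7%), and after TMM scaling 8 and 2 (10.7% and 11.6%). At 12 h 21 were higher and 2 lower (7.57% and 8.63%), and TMM scaling called the same 23 genes in the same direction (7.93% and 8.48%). At 16 h 11 and 1 were called (7.31% and 6.35%), after TMM scaling 8 and 2 (6.49% and 7.76%). At 20 h the counts were 17 and 2 (12.5% and 5.87%), after TMM scaling 7 and 3 (7.39% and 8.38%). At 24 h they were 22 and 0 (9.19% and 3.11%), after TMM scaling 6 and 0 (5.59% and 5.47%). At 28 h they were 21 and 0 (14.9% and 5.59%), after TMM scaling 7 and 0 (7.82% and 8.75%). At 32 h they were 12 and 1 (11.8% and 3.6%), after TMM scaling 4 and 2 (5.97% and 6.15%), which is close to the background. Over all times 30 members rose at 1 or more times as deposited. Of these, 29 also rose at 1 or more times after TMM scaling, though not always at the same time. As deposited 17 rose at 4 or more times, against 8 after TMM scaling. The share of all genes was not computed for these tallies over times, so they have no background.

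In either direction, the shares of all genes called at the 8 times were 46.9%, 24.7%, 16.2%, 13.7%, 18.4%, 12.3%, 20.5% and 15.4% as deposited. After TMM scaling they were 40.4%, 22.3%, 16.4%, 14.3%, 15.8%, 11.1%, 16.6% and 12.1%. Single libraries moved some of the member counts by over 1.5 times. At 8 h 3 to 7 members were called when each library was left out in turn, with 4 without sham replicate 2, 3 without PHx replicate 1 and 3 without PHx replicate 3. At 20 h the count of 19 fell to 9, 11 and 10 without sham replicates 1, 2 and 3, and to 10 and 11 without PHx replicates 1 and 3. At 24 h the count of 22 became 8 and 14 without sham replicates 2 and 3 and 7 without PHx replicate 1. At 28 h it was 12 without sham replicate 2, and at 32 h it was 5 without sham replicate 3 and 5 without PHx replicate 1.

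**Figure D2:**
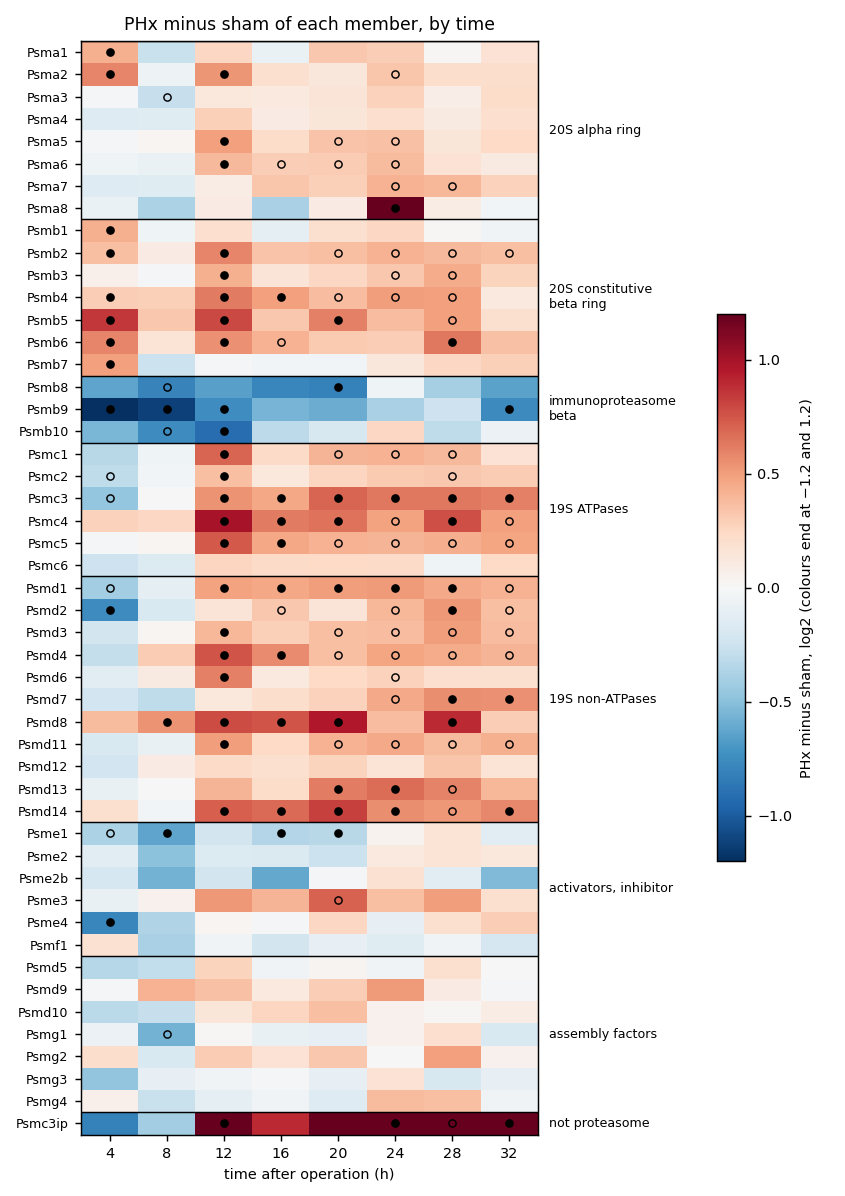
PHx minus sham on the log2 scale for each of the 49 members (rows, by role) at each time (columns, h after operation), with red for higher and blue for lower after PHx. Filled circles mark genes called under both scalings and open circles genes called as deposited only. The beta ring is red at 4 h, the 19S rows from 12 h, and the immunoproteasome rows are mostly blue.

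**Figure D3:**
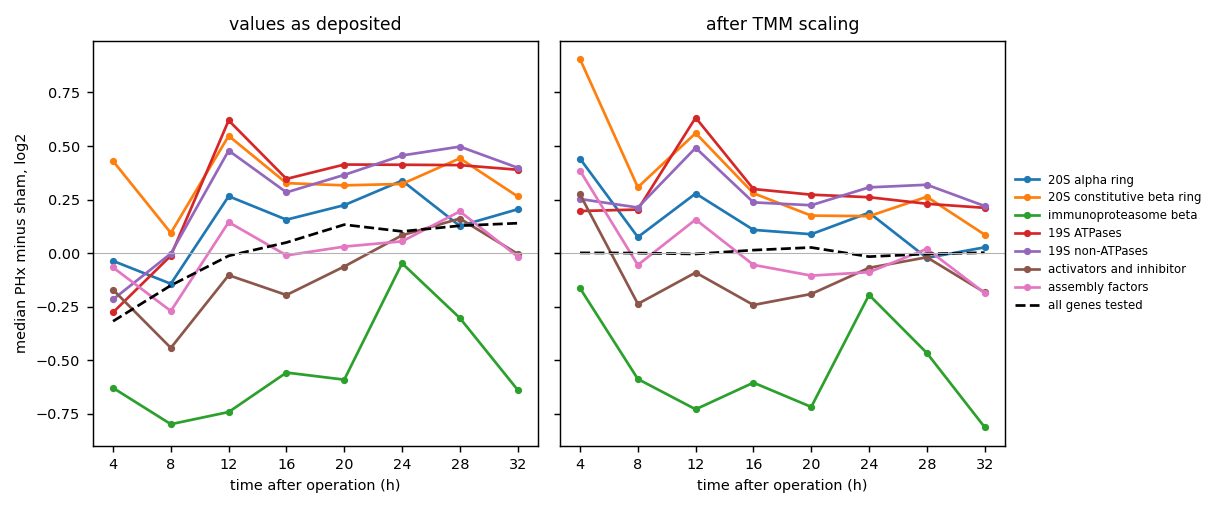
Median PHx minus sham (log2) of each role against time after operation (h), as deposited (left) and after TMM scaling (right), with a dashed line for all genes tested. The immunoproteasome line lies lowest of the roles at all 8 times in both panels, and the beta ring is highest at 4 h, at 0.43 as deposited and 0.91 after scaling.

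As deposited, the constitutive beta ring was higher at 4 h, before most of the 19S regulator. Of the ring's 7 genes, 6 rose (all genes 9.32%), and Psmb3 alone was not called. Psmb5, the chymotrypsin-like subunit, had log2 values of 5.20, 5.56 and 5.82 in sham and 6.41, 6.43 and 6.29 after PHx at 4 h. Every PHx library lay above every sham library, and the difference was 0.85 ± 0.14 (adjusted p = 3.58e-06, limma), or 1.33 after TMM scaling. Psmb6, the caspase-like subunit, had 7.23, 7.12 and 7.39 in sham and 7.82, 7.52 and 8.16 after PHx (0.59 ± 0.13), again without overlap. Psmb7, the trypsin-like subunit, had 6.31, 6.16 and 6.06 in sham and 6.70, 6.44 and 6.87 after PHx (0.49 ± 0.13). Psmb1, Psmb4 and Psmb2, structural members of the ring, rose by 0.43, 0.30 and 0.37. Against sham at 24 h, the reference of the same library series, only Psmb2, Psmb3 and Psmb5 of the ring were called, at 0.35, 0.33 and 0.36, while Psmb6 was at 0.15 and Psmb7 at 0.05. Without sham replicate 1 at 4 h, 5 of the 7 were called. The share of all genes called is not given for either of these settings, so the ring's counts there have no background. At 12 h Psmb5 was again higher, with 5.54, 5.71 and 5.54 in sham and 6.40, 6.34 and 6.44 after PHx (0.80 ± 0.14, adjusted p = 6.77e-05), and 5 of 7 beta genes were called.

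Alpha ring genes changed less. At 4 h Psma2 had 4.63, 4.87 and 4.94 in sham and 5.42, 5.28 and 5.49 after PHx (0.58 ± 0.11, adjusted p = 5.7e-05), and Psma1 rose by 0.42 ± 0.14. The groups did not overlap for either gene, but against sham at 24 h Psma2 was at 0.15 (adjusted p = 0.326) and Psma1 turned to -0.07 (adjusted p = 0.722, limma). Psma7 reached 0.42 at 24 h and 0.40 at 28 h, both called as deposited and neither after TMM scaling, and its mean over 8 times was 0.19 ± 0.05. Psma8, an alpha subunit known from germ cells, was near the floor at most times and rose at 24 h, where sham libraries read 0.61, 0.00 and 1.23 and PHx libraries 2.64, 2.15 and 2.03 (1.66 ± 0.34, adjusted p = 0.00102).

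**Figure D4:**
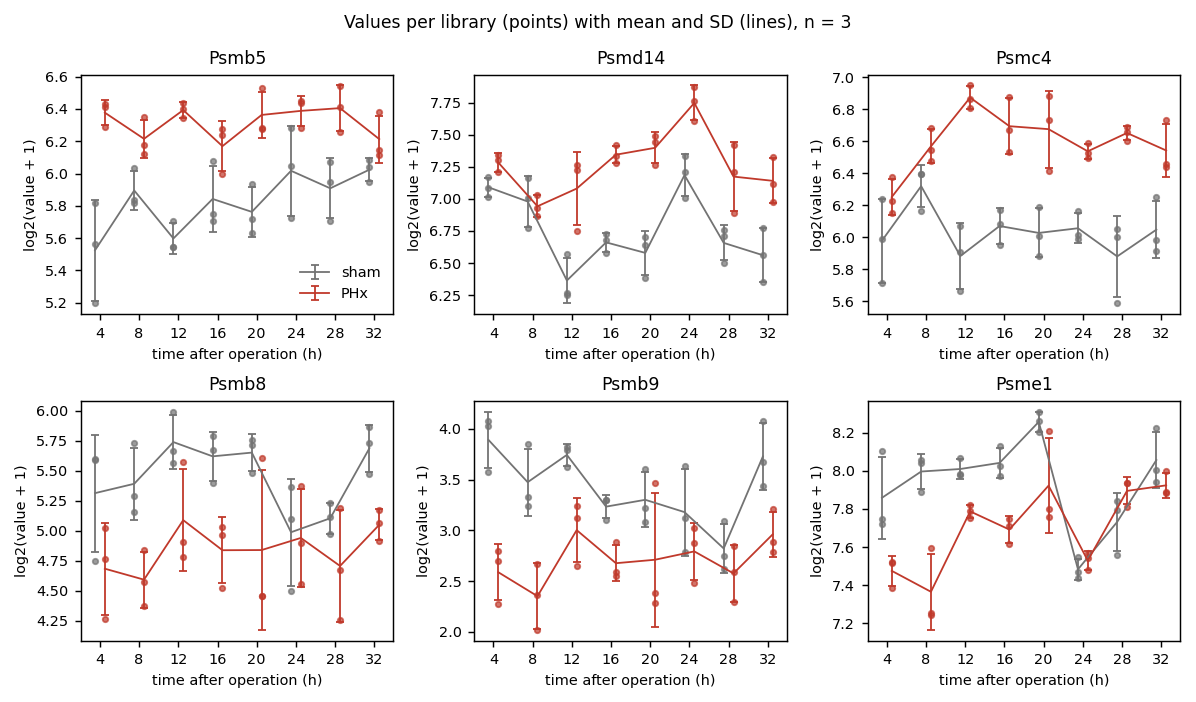
Values of 6 members in every library on the log2(value + 1) scale against time after operation (h), sham in grey and PHx in red shifted sideways for clarity, with lines and bars for the mean and SD of 3 libraries. For Psmb5 at 4 h the PHx libraries lie at 6.29 to 6.43 and the sham libraries at 5.20 to 5.82, and for Psmb9 the order is reversed.

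In the values as deposited, the 19S regulator was not higher at 4 h and became so from 12 h on. At 4 h 0 of its 17 genes rose and 4 fell as deposited (Psmc2, Psmc3, Psmd1 and Psmd2), where all genes gave 9.32% and 37.6%. After TMM scaling 6 already rose at 4 h and only Psmd2 fell (all genes 21% and 19.4%). Psmd2, a large base subunit, had 6.93, 6.79 and 6.69 in sham and 6.07, 6.19 and 5.88 after PHx (-0.75 ± 0.11, adjusted p = 9.32e-07), or -0.28 (adjusted p = 0.0299, limma) after TMM scaling. Against sham at 24 h Psmd2 was also at -0.28 (adjusted p = 0.0469, limma), and Psmc2, Psmc3 and Psmd1 were not called. At 8 h Psmd8 alone rose, from 6.16, 6.15 and 6.12 to 6.65, 6.78 and 6.62 (0.54 ± 0.18, adjusted p = 0.0279), a call lost when any one of the 6 libraries was left out. From 12 to 32 h 12, 8, 11, 13, 14 and 10 of the 17 genes were higher, and after TMM scaling 12, 7, 6, 4, 6 and 3. The shares of all genes higher at these times were 7.57%, 7.31%, 12.5%, 9.19%, 14.9% and 11.8%. After TMM scaling they were 7.93%, 6.49%, 7.39%, 5.59%, 7.82% and 5.97%.

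Among the ATPases, Psmc4 led at 12 h, with 5.91, 6.07 and 5.67 in sham and 6.81, 6.86 and 6.95 after PHx (0.99 ± 0.14, adjusted p = 2.35e-06). At 28 h it had 6.05, 5.59 and 6.00 in sham and 6.69, 6.66 and 6.60 after PHx (0.77 ± 0.14, adjusted p = 8.28e-05). Psmc3 was higher at every time from 12 h under both scalings. At 20 h Psmc3 read 7.26, 7.36 and 7.22 in sham and 8.00, 7.98 and 7.96 after PHx (0.70 ± 0.12, adjusted p = 8.72e-05). At 32 h its sham libraries read 7.38, 7.59 and 7.44 and its PHx libraries 8.27, 7.93 and 8.00 (0.60 ± 0.12, adjusted p = 0.000817), and at 24 and 28 h the difference was 0.63. Neither gene's groups overlapped at these times.

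Among the other 19S subunits, Psmd14, the deubiquitinase that cleaves ubiquitin from substrates, was higher at every time from 12 h as deposited, and after TMM scaling at each of these times other than 28 h (0.34, adjusted p = 0.072, limma). At 16 h it had 6.72, 6.58 and 6.68 in sham and 7.33, 7.42 and 7.28 after PHx (0.68 ± 0.14, adjusted p = 0.00053). At 20 h it had 6.39, 6.71 and 6.64 against 7.44, 7.26 and 7.49 (0.82 ± 0.14, adjusted p = 4.83e-05). Psmd1, the scaffold of the base, had 6.31, 6.34 and 6.31 in sham and 6.83, 6.77 and 6.74 after PHx at 16 h (0.46 ± 0.10, adjusted p = 0.00116). At 24 h Psmd1 had 6.46, 6.33 and 6.31 against 6.96, 6.89 and 6.79 (0.51 ± 0.10, adjusted p = 0.000556). Psmd6, a lid subunit, stood out at 12 h, with 6.13, 6.14 and 6.02 in sham and 6.70, 6.77 and 6.63 after PHx (0.60 ± 0.09, adjusted p = 6.36e-06). In all these sets the PHx libraries lay above the sham libraries.

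The immunoproteasome genes moved the other way. Psmb9 had 4.03, 3.57 and 4.08 in sham and 2.27, 2.69 and 2.80 after PHx at 4 h (-1.30 ± 0.25, adjusted p = 6.08e-05), or -0.89 after TMM scaling. Against sham at 24 h it was at -0.59 and not called (adjusted p = 0.0636, limma). Psmb8 and Psmb10 were not called at 4 h (-0.63 ± 0.28 and -0.55 ± 0.27), and their groups overlapped. At 8 h all 3 fell. Psmb9 then had 3.33, 3.85 and 3.24 in sham and 2.02, 2.67 and 2.36 after PHx (-1.12 ± 0.25, adjusted p = 0.000876). Psmb8 was at -0.80 ± 0.28 and Psmb10 at -0.76 ± 0.27 at 8 h, neither called after TMM scaling. Psmb10 at 12 h read 4.30, 4.34 and 4.09 in sham and 3.31, 3.39 and 3.29 after PHx (-0.92 ± 0.27, adjusted p = 0.0179), and Psmb9 was at -0.74 ± 0.25. Psmb8 at 20 h read 5.48, 5.76 and 5.72 in sham and 4.46, 5.60 and 4.45 after PHx (-0.81 ± 0.28, adjusted p = 0.0375), where PHx replicate 2 lay within the sham range. At 32 h Psmb9 was again lower, with 3.43, 3.67 and 4.08 against 3.21, 2.89 and 2.79 (-0.77 ± 0.25). The calls of Psmb10 and Psmb9 at 12 h, Psmb8 at 20 h and Psmb9 at 32 h were each lost when 1 of several libraries was left out. At 24 h none of the 3 genes was called.

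The activators split. Psme1, a PA28 subunit, fell at 4, 8, 16 and 20 h as deposited, and the 4 h difference of -0.38 turned to 0.10 after TMM scaling and was -0.01 against sham at 24 h, neither called. At 8 h Psme1 had 8.04, 8.06 and 7.89 in sham and 7.25, 7.59 and 7.26 after PHx (-0.63 ± 0.11, adjusted p = 2.69e-05), without overlap. At 16 h its difference was -0.35 ± 0.11 and at 20 h -0.33 ± 0.11, and both calls were lost when single libraries were left out. Psme2, its partner, was called at no time and lay between -0.49 at 8 h and 0.16 at 28 h. Psme3, the nuclear PA28 gamma, rose at 20 h, from 5.04, 4.58 and 4.95 to 5.54, 5.37 and 5.77 (0.71 ± 0.21, adjusted p = 0.0183), and was not called after TMM scaling (adjusted p = 0.0519, limma). Psme4, the activator PA200, fell at 4 h alone, from 4.41, 4.22 and 4.23 to 3.71, 3.48 and 3.31 (-0.79 ± 0.14, adjusted p = 3.22e-05). After TMM scaling it was at -0.34 and against sham at 24 h at -0.67, both called.

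Genes of MHC class I presentation and the interferon response, which are no members, moved in the same direction as the immunoproteasome. In the mean of 8 times, 12 of 16 were lower and 0 higher (all genes 25.5% and 27.4%), with the list's median at -0.48 against 0.01 for all genes. Ifit3, an interferon-induced gene, was at -1.27 ± 0.14, and the peptide-loading genes Tapbp and B2m were at -0.62 ± 0.07 and -0.46 ± 0.05. H2-K1, a class I heavy chain, was at -0.42 ± 0.04. Leukocyte markers moved too: 11 of 19 tested were lower and 5 higher (all genes 25.5% and 27.4%), and their summed value ranged from 292 to 1413 in sham libraries and from 347 to 913 after PHx. Of the 20 leukocyte markers in the tables, only Nkg7 was at 0 in all libraries of a group, in sham at 24 h and PHx at 28 h. Of 6 endothelial markers 4 were lower, with Kdr at -0.76 ± 0.09 and Fcgr2b at -0.50 ± 0.06, and 1 was higher. Of 7 hepatocyte markers 4 were lower, with Serpina1c at -0.55 ± 0.05 and Ttr at -0.50 ± 0.06, and 0 higher. The part of cell composition in the immunoproteasome values was not tested.

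Assembly factors changed little on average. In the mean of 8 times Psmd9 and Psmg2 were higher, at 0.22 ± 0.07 and 0.17 ± 0.07, and Psmd5, Psmd10, Psmg1, Psmg3 and Psmg4 lay between -0.11 and 0.04 without a call. The single call at one time as deposited was Psmg1 at 8 h (-0.57 ± 0.17), lost after TMM scaling (adjusted p = 0.112). TMM scaling called others instead: Psmg2 (0.62) and Psmg4 (0.53) at 4 h and Psmd9 (0.62) at 8 h. Against sham at 24 h, the 4 h differences of Psmg2 and Psmg4 turned to -0.17 and -0.08 without a call. Psmd5 was lower against that reference (-0.69 ± 0.18, adjusted p = 0.0027, limma) and was not called against sham at 4 h. Psmc3ip, the recombination factor outside the proteasome, rose the most of all matching genes. At 32 h it had 0.91, 1.72 and 0.69 in sham and 4.55, 3.66 and 3.26 after PHx (2.72 ± 0.56, adjusted p = 0.000888), with no overlap.

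Related genes outside the naming rule were compared by the same test in the mean of 8 times, in which 27.4% of all genes were higher and 25.5% lower. Of 10 other proteasome factors tested, 3 were higher, a share near that of all genes, and 0 lower. They were Adrm1, a 19S ubiquitin receptor (0.26 ± 0.04), Txnl1, a 19S-associated thioredoxin (0.20 ± 0.05), and Sem1, a small 19S subunit (0.16 ± 0.06). By single times Sem1 was called at 4 h alone (1.12 ± 0.17), and it lay at -0.22 at 28 h. Of 16 ubiquitin supply and shuttle genes, 8 were higher and 2 lower. Ufd1, a partner of the unfoldase p97, was at 0.42 ± 0.05 and Rps27a, a ubiquitin fusion gene, at 0.35 ± 0.05. Of 11 genes listed for the Nrf1 axis, a list that also holds Nfe2l2, Keap1 and Bach1, 4 were higher and 1 lower. Nfe2l1 itself was at -0.06 ± 0.07 and not called, and Ddi2, the protease that activates Nrf1, was at 0.24 ± 0.06. The small Maf genes Maff and Mafk were at 1.04 ± 0.16 and 0.64 ± 0.11. These means cover opposite changes over time. At 4 h Nfe2l1 was at -1.39 ± 0.19, and at -0.93 after TMM scaling, both called. At 12 h Nfe2l1 was at 0.46 and not called. Maff was at 2.55 at 4 h and at -0.93 at 12 h, the latter not called. At 4 h 7 genes of this list were lower and 2 higher (all genes 37.6% and 9.32%), and after TMM scaling 4 and 3 (19.4% and 21%). All 4 h values of these related genes are against sham at 4 h, whose library series differs from that of PHx. They are not given against sham at 24 h, so series and operation cannot be told apart in them. Of 5 autophagy receptors and Atg8 genes, only Gabarapl1 was called (-1.02 ± 0.07).

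Between 8 and 20 h the PHx difference itself changed for 4 members, where 7.35% of all genes changed (limma F test over 4 times), so that the members' share is near the background. All 4 were 19S genes. Psmd14 went from -0.04 at 8 h to 0.72, 0.68 and 0.82 at 12, 16 and 20 h (adjusted p = 0.0099). Psmd1 went from -0.11 to 0.48, 0.46 and 0.50, and Psmc3 from 0.01 to 0.54, 0.46 and 0.70. Psmd6 went from 0.11 to 0.60 at 12 h and back to 0.12 and 0.24. After TMM scaling only Psmd6 was called (all genes 3.64%), and leaving out single libraries gave 2 to 7 members.

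A 24 h cycle fitted to the 8 times was called for 14 of 49 members in sham, near the share of all genes (28%). After PHx it was called for 10 (8.28% of all genes). Psmg4, an assembly factor, had the largest called amplitude in sham, 0.54 on the log2 scale with its peak at 13.7 h after operation. Psma1 had an amplitude of 0.44 and a peak at 1.37 h in sham, and 0.57 and 0.78 h after PHx. Psme3 had amplitudes of 0.43 and 0.36 and was called in both. In the authors' deposited table, the probability of a rhythm was 0.999 for Psma1 in both operations, and 0.998 in sham and 0.996 after PHx for Psme3. Psmb8, Psme1, Psme2 and Psme2b were called in sham, with peaks between 13.6 and 14.2 h, and none of the 4 after PHx; the difference in rhythm between operations was not tested. With library series, which changes with time, as a term, the counts were 3 in sham and 6 after PHx. After TMM scaling they were 16 (23.2%) and 5 (9.42%), the latter near the share of all genes. In sham the count was 9 without sham replicate 1 at 16 h and also 9 without sham replicate 1 at 24 h.

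At 24 h, raw counts allowed the PHx difference to be compared between mice operated on in the morning and at night, for 47 members in both tables. After morning operation 2 members were higher and 0 lower (all genes 6.69% and 5.11%, edgeR quasi-likelihood test). The time course gave 22 calls at 24 h for the same 6 libraries as deposited and 6 after TMM scaling. Of those 22 genes, 21 were tested in the counts and 2 called there, while Psmd1 (0.46, adjusted p = 0.0646) and Psmc3 (0.51, adjusted p = 0.0664) were not. After night operation 10 were higher and 3 lower (11.9% and 11.3%), of which 8 were 19S genes. The difference between the responses was tested directly and called for 0 members (0.489% of all genes), with 4 at an unadjusted p under 0.05 in edgeR and 0 called by DESeq2. The larger count after night operation is therefore not shown to be a different response.

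After night operation Psmd14 had 175, 202 and 192 CPM (counts scaled to a common library total by TMM) after PHx and 108, 94.7 and 91.8 in sham (log2 difference 0.95 ± 0.13, adjusted p = 0.000115, edgeR). After morning operation it had 172, 152 and 160 against 122, 126 and 117 (0.40 ± 0.12, adjusted p = 0.0475), a call lost when any one of the 6 libraries was left out. Psmb8 after night operation had 18.6, 26.0 and 26.8 CPM after PHx and 35.9, 39.1 and 58.8 in sham (-0.91 ± 0.28, adjusted p = 0.0306), and after morning operation -0.31 ± 0.28 (adjusted p = 0.545) with overlapping groups. Psmb10 after night operation had 12.3, 14.1 and 14.8 against 17.8, 17.9 and 30.5 (-0.68 ± 0.21, adjusted p = 0.0302), where leaving out night sham replicate 3 gave -0.37 (adjusted p = 0.161). Psme1 after night operation had 125, 123 and 137 against 197, 177 and 189 (-0.55 ± 0.12, adjusted p = 0.00395). Psmc3ip was higher after both, at 3.47 ± 0.29 and 2.58 ± 0.28. Without night PHx replicate 1, night PHx replicate 3 or night sham replicate 2, 7, 6 and 7 members were called after night operation in place of 13. With the 6 night libraries alone 8 were called.

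**Figure D5:**
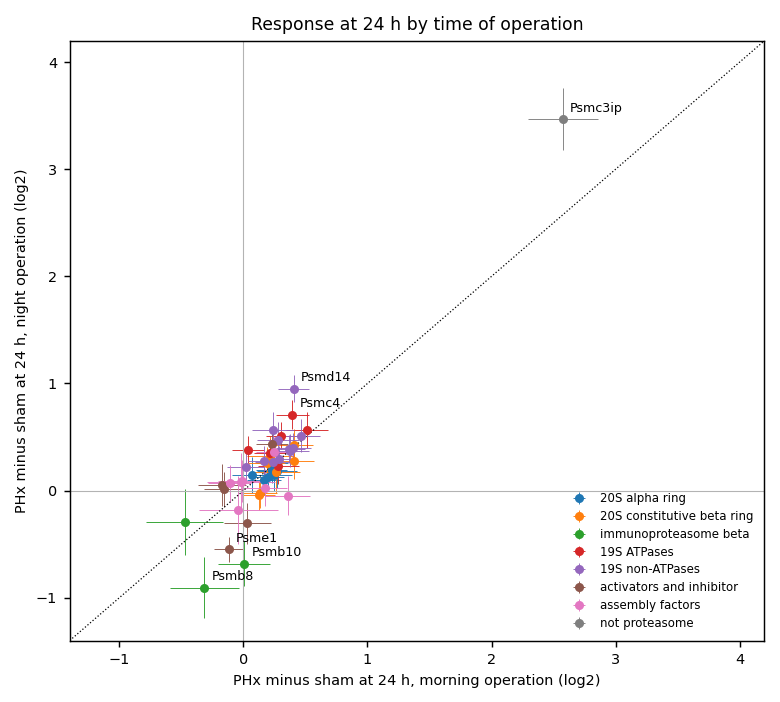
PHx minus sham at 24 h (log2, with SE bars) after morning operation (horizontal axis) and night operation (vertical axis) for 47 members, coloured by role, with a dotted line of equal response. Of the 47 points, 26 lie between 0 and 0.5 on both axes, Psmc3ip stands at 2.58 and 3.47, and Psmb8, Psmb10 and Psme1 lie below 0 on the vertical axis.

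Direct comparison of morning with night operation within each group called 0 members in all 4 settings. For PHx at 24 h 0 of 48 were called (0.332% of all genes, edgeR), with 2 at an unadjusted p under 0.05 and 0 by DESeq2. For sham at 24 h 0 of 48 were called (5.35%), with 5 at an unadjusted p under 0.05 and 0 by DESeq2, and differences ranged from -0.56 to 0.33. For PHx at 4 h 0 of 47 were called (0.841%, limma), with 5 at an unadjusted p under 0.05 and 0 in edgeR on the recovered counts. For sham at 4 h 0 of 49 were called and 0 of 11391 genes (0%), with 3 members at an unadjusted p under 0.05. Psmb8 there had 39.3, 34.9 and 21.7 TPM in the morning columns and 19.5, 25.2 and 12.9 TPM at night, so that the groups overlapped (0.71 ± 0.29, adjusted p = 0.841). Without morning column 3 and night replicate 3, which went against their labels, 0 members and 42 of 11081 genes were called, and Psmb8 was again at 0.71 (adjusted p = 0.194, limma).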

How the data were processed

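RNA sequencing of polyA RNA from mouse liver was analysed from the tables the authors deposited. The submitters' processing notes name fastp 0.20.0, HISAT2 2.1.0 and the builds mm8 and mm9, without the role of either build. The deposited time course holds log2(value + 1) per gene, and the unit of the value is not given in the sources used here: its linear sums were 0.937 to 1.20 M (mega) per library and above 1 M in 37 of 48, so depth is unknown. For 24 h the authors deposited raw read counts, with 24.6 to 30.2 M per library. In the table for PHx at 4 h, the deposited signal carries a TPM header but was a whole read number times a constant of the gene (100% whole within 0.01, 11721 genes), which gave 24.9 to 30.6 M reads per library. The deposited 4 h sham table holds TPM, per the file headers. The authors' deposited probability of a rhythm is printed for 2 genes only. A further 6 columns matched no labelled sample and were not used.

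Genes at a value of 1 or more in at least 3 libraries were tested with limma 3.58.1 (trend, 16 group means over 48 libraries) in R 4.3.3. Counts were tested with the quasi-likelihood test of edgeR 4.0.16 after TMM scaling, with DESeq2 1.42.0 as an alternative. PHx against sham and the difference between the responses came from 1 fit of 12 libraries and 12056 genes. Morning against night at 24 h came from separate fits of 6 libraries, over 12658 genes for PHx and 12345 for sham. The 4 h tables were tested with limma, sham on log2(TPM + 1) and PHx on TMM-scaled values, because that table did not hold the TPM that its header names. P-values were Benjamini-Hochberg adjusted over all genes tested, and adjusted p under 0.05 is a call. Errors are SE of the fitted difference, with 3 libraries per group. In the time course, deviations of same-numbered libraries correlated at a median of 0.00 and over 0.1 in 5 of 24 pairs of one time. Replicate numbers were therefore not treated as pairs. Pairing was not checked in the 24 h counts or the night libraries. There a replicate block raised the number of calls for PHx against sham, as given below. Simulated data with known changes were first run through the limma test at 12 h and the sham rhythm fit. The edgeR test of PHx against sham after night operation was also run on such data, and the other tests were not.

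Genes given with full values were, at each time or comparison, up to 2 called members in each direction with the smallest adjusted p, the catalytic and PA28 genes with Psma7, and the leading gene of each role in the mean of 8 times. Others named alongside were chosen after their values were seen. The members, lists and motifs were chosen with earlier results of these data known. Alternatives were TMM scaling, other filters and pseudocounts, each library left out, the replicate block and fits to the libraries of one comparison. Promoter sequences are from RefSeq on GRCm38.p6.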

Additional observations from a re-analysis of the deposited data

Results flagged for a closer look

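For 4 of 49 members, all 19S genes, against 7.35% of all genes, the difference between PHx and sham itself differed among 8, 12, 16 and 20 h by the test of that difference (limma F test, adjusted over all genes). The adjusted p was 0.00723 for Psmd1, 0.0099 for Psmd14, 0.0205 for Psmd6 and 0.0358 for Psmc3. Psmd1, Psmd14 and Psmc3 were near 0 at 8 h and at 0.46 or more from 12 to 20 h, whereas Psmd6 peaked at 12 h. After TMM scaling, Psmd6 had an adjusted p of 0.015, and Psmd14, Psmd1 and Psmc3 had 0.185, 0.285 and 0.525.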

How the results depend on the processing

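At 4 h, Psme1 turned from -0.38 to 0.10 after TMM scaling and Psma1 from 0.42 to -0.07 against sham at 24 h, without a call. The counts in the mean of 8 times were 35 to 40 when single libraries were left out. After TMM scaling the count of members called was 26 (4 h), 10 (20 h), 6 (24 h), 7 (28 h) and 6 (32 h), 1 for the changed response and 5 for the PHx rhythm. With the 6 libraries of a comparison alone it was 8 (4 h), 5 (16 h), 8 (20 h), 6 (24 h) and 5 (28 h). For the night counts, in a fit added after the data were seen, it was 8. Against sham at 24 h it was 6 at 4 h, and with library series as a term it was 3 for the sham rhythm and 6 for the PHx rhythm. For the morning counts, DESeq2 size factors gave 1, DESeq2 gave 5 and the replicate block gave 6, in place of 2. Leaving out single libraries gave 13 to 18 at 4 h, 3 to 7 at 8 h, 17 to 20 at 12 h, 8 to 11 at 16 h, 9 to 16 at 20 h, 7 to 19 at 24 h, 12 to 19 at 28 h, 5 to 10 at 32 h, 2 to 7 for the changed response, 9 to 16 for the sham rhythm, 8 to 14 for the PHx rhythm, 1 to 3 for the morning counts, 6 to 13 for the night counts and 0 for morning against night. Of these settings, the share of all genes is given above for TMM scaling only, so the other counts cannot be set against the background. The causes were not tested. The changed response had 7 members without sham replicate 3 at 8 h. With the replicate block, 18 members were called in the night counts and 0 in each comparison of morning with night where it could be fitted, and it could not be fitted for sham at 4 h, whose morning columns carry no number. Low members limit precision: Psma8 was listed at 0 in 1 sham library at 24 h.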
